A study of Homo sapiens with 3 samples.

Results

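The collagen genes were followed in the transcriptome of TE5, a human esophageal squamous cell carcinoma line, with and without short hairpin RNA against the transcription factor KLF5. They were taken by symbol, as protein-coding genes named COL, a number, A and a number, with COL17A1, a transmembrane collagen of hemidesmosomes, left out. This gave 43 of the 52992 genes with a transcript in the tables. Of these, 42 had at least 10 estimated counts in a library and entered the test, and 22 had at least 50. Another 20 stayed between 10 and 49 counts at most, and COL9A1 stayed under 10, with 5, 7 and 3 counts. There were 3 libraries of TE5 cells harvested 48 h after transfection, 1 that received the scramble construct and 2 that received shKLF5. Cells of both groups grew in RPMI-1640 medium with fetal bovine serum and antibiotics, as the labels state. The shKLF5 libraries are numbered 1 and 2, and the labels do not say what the number stands for, a hairpin or a culture. Scramble has no replicate, and every p-value below rests on how far these 2 libraries differ, a spread that may be only technical. All 3 samples are labelled as the cell line alone, a single line and not tumour tissue. In all that follows, 3 values in a row are those of scramble, shKLF5 library 1 and shKLF5 library 2.

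Collagens are extracellular proteins of 3 chains wound into a triple helix, in which glycine recurs at regular steps. The chains are hydroxylated and folded in the endoplasmic reticulum, exported as procollagen, and cut and crosslinked outside the cell. Fibrillar collagens give connective tissue its strength, while type IV collagen forms the network of basement membranes. FACIT collagens sit on the surface of fibrils, type VI forms beaded filaments, and type VII forms the anchoring fibrils that tie squamous epithelium to the tissue beneath it. Stromal fibroblasts make most fibrillar collagen in the esophagus, and the epithelium itself contributes to the basement membrane and the anchoring fibrils.

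The libraries held 33448976, 33544752 and 32720563 estimated counts. KLF5, the target of the hairpins, had 8402, 1333 and 1531 counts. All 8 squamous markers on the list were present in each library, with a summed level of 3799, 1280 and 852 TPM, and all 8 were lower in both shKLF5 libraries. Of 11 fibroblast markers other than collagens, 3, 2 and 1 were at 0 counts, and their summed level was 126, 87.3 and 53.7 TPM. Nearly all of it came from MFAP5, a microfibril protein (92.3, 40.3 and 31.5 TPM), and FBLN1, a fibulin (32.1, 44.0 and 19.6 TPM). The other 9 had at most 39 counts in any library, with TWIST2 at 0 in all 3, DCN at 4, 9 and 7, LUM at 9, 20 and 4, PDGFRA at 2, 14 and 9 and PDGFRB at 3, 39 and 35. Of the 7 fibroblast markers tested 3 stood above scramble in both shKLF5 libraries (PDGFRA, PDGFRB and ACTA2) and 3 below it, so the sum does not describe each member. More genes were detected in the shKLF5 libraries: 16993, 19389 and 19524 genes had at least 10 counts.

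TPM, the share of transcripts after correction for their length, allow levels of different genes to be compared. Summed over the 43 genes, collagen transcripts stood at 345, 487 and 243 TPM, so library 1 was above scramble and library 2 below it. The 5 genes that were highest in scramble, COL7A1, COL4A5, COL5A2, COL18A1 and COL6A1, held 68.7%, 66.2% and 54.4% of that sum. Basement membrane network chains gave 103, 144 and 85.7 TPM, the anchoring fibril gene COL7A1 72.9, 59.6 and 57.6 TPM, and fibrillar chains 78.0, 154 and 35.7 TPM. Fibrillar chains were thus the largest family in library 1 and smaller than the type IV network and COL7A1 in library 2. Most of that swing was 1 gene, COL5A2, which alone gave 48.2, 113 and 9.97 TPM. The transmembrane collagens COL13A1, COL23A1 and COL25A1 summed to at most 0.938 TPM in any library, and the hexagonal network collagens COL8A1 and COL8A2 with the hypertrophic cartilage collagen COL10A1 to at most 0.922 TPM.

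**Figure D1:**
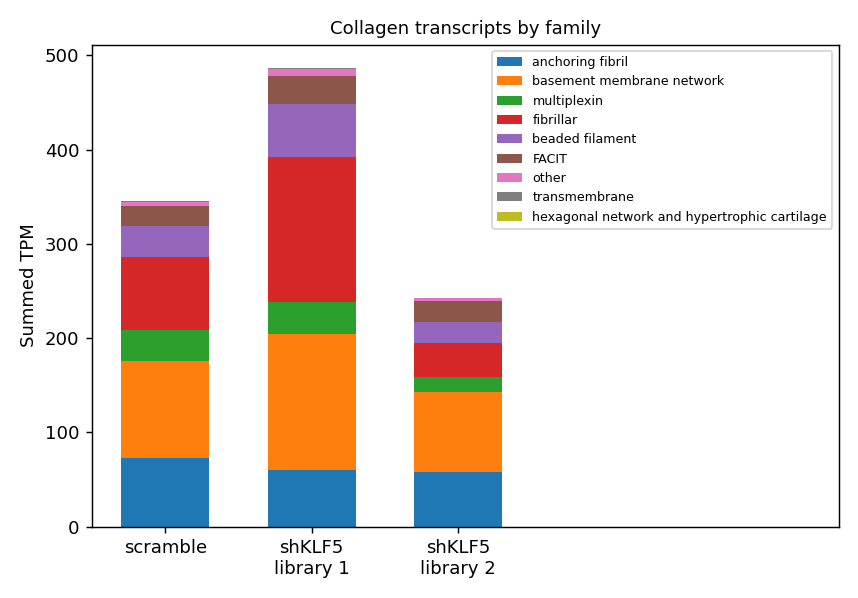
Summed TPM of the 43 collagen genes in each of the 3 libraries, stacked by family. The bars reach 345 TPM (scramble), 487 TPM (library 1) and 243 TPM (library 2), and the fibrillar segment differs most, from 78.0 to 154 and 35.7 TPM. COL5A2 alone holds 48.2, 113 and 9.97 TPM of that segment.

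TPM were not rescaled between libraries. Fold changes therefore rest on CPM, the counts relative to a TMM-scaled library size, which lowers both shKLF5 libraries by a common factor against scramble, and a gene can stand higher in TPM and lower in CPM in the same library. No collagen gene passed the test. With edgeR's quasi-likelihood test and Benjamini-Hochberg adjustment, 0 of 42 collagens and 0 of all 20828 genes tested (0.0%) had an adjusted p under 0.05. At an unadjusted p under 0.05 there were 9 collagens of the 42, against 9.65% of all genes. Of these, 7 were higher (6.1% of all genes), each with under 50 counts (11.6% of genes of that depth), and 2 were lower, COL7A1 and COL5A3 (3.54% of all genes). The 7 were COL14A1, COL1A2, COL22A1, COL26A1, COL4A3, COL6A5 and COL8A2. All had under 10 counts in scramble and entered the test only through shKLF5 libraries, and COL26A1 had counts in library 1 alone (0, 12 and 0). At least 2-fold higher values in both shKLF5 libraries were found for 11 of the 42 (8.33% of all genes) and at least 2-fold lower ones for 1 (2.27%). DESeq2 called 0 of the 42 and 0.557% of all genes, and edgeR's legacy fit called 0 of the 42 and 0.106% of all genes. Every direction given below is therefore one of values and not of a call.

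**Figure D2:**
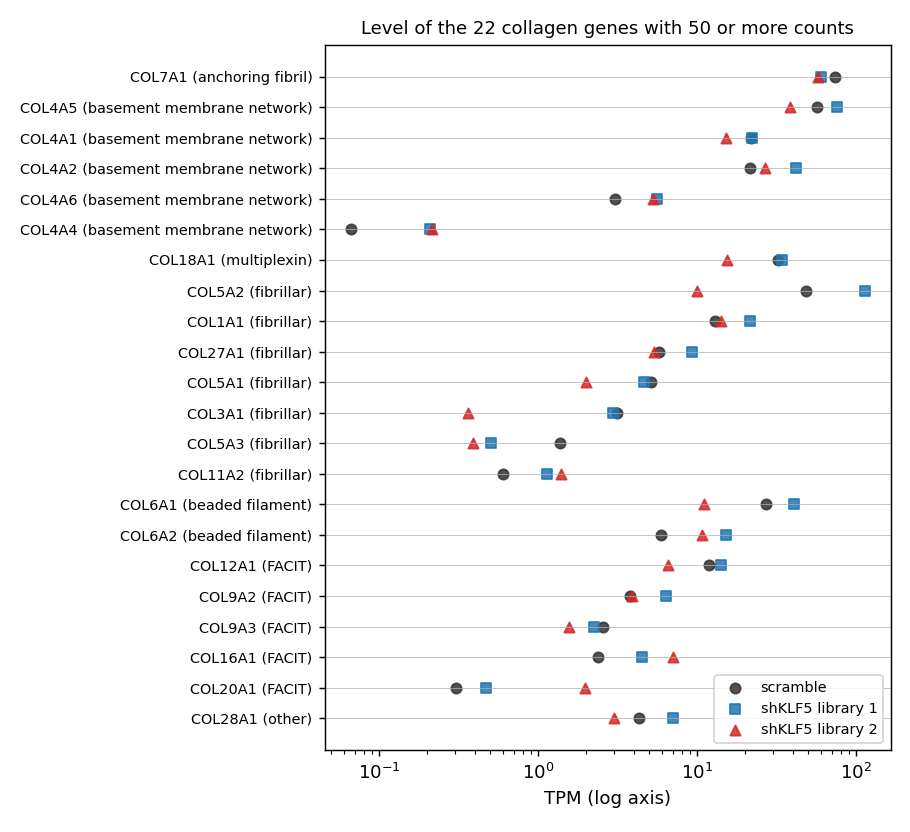
TPM on a log axis of the 22 collagen genes with at least 50 counts in a library, 1 symbol per library, ordered by family and by level in scramble. COL7A1 leads in scramble at 72.9 TPM, COL5A2 spans 9.97 to 113 TPM between the shKLF5 libraries, and the symbols of COL7A1, COL4A6 and COL4A4 lie close together for these 2 libraries.

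COL7A1, whose product forms the anchoring fibrils below squamous epithelium, was the most abundant collagen in scramble and was lower in both shKLF5 libraries by nearly the same amount. COL7A1 (ENSG00000114270; GRCh38 chromosome 3, 48564073 to 48595267) had 9908, 7486 and 6738 counts. After scaling, 373 CPM in scramble stood against 209 and 194 CPM, which is 1.78 and 1.92 times less. Both knockdown libraries lay below scramble and 1.08-fold from each other. The fit gave a log2 fold change of -0.89 with an SE of 0.34 and a 95% interval from -1.67 to -0.11. Its adjusted p by edgeR's quasi-likelihood test was 0.480, and over the alternatives it ran from 0.462 to 0.892. With library size alone in place of TMM, COL7A1 still stood lower by value, by -0.40 and -0.52 on the log2 scale. The coding transcript COL7A1-201 held 71.2%, 71.2% and 66.1% of the gene's counts, and COL7A1-210, annotated as a retained intron, held 22.5%, 21.8% and 25.3%.

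The sequence before the start of COL7A1 is shown for this gene and for COL5A3, the other collagen of at least 50 counts whose unadjusted p was under 0.05 (0.0302 for COL7A1 and 0.00237 for COL5A3). The sequences are from RefSeq (GRCh38.p14), read along the strand of the gene, and end at the base before its RefSeq start. COL7A1 covers chr3:48595330-48595579 and COL5A3 chr19:10010505-10010754, both on the minus strand. Capitals mark matches to CCNCNCCC or its reverse complement GGGNGNGG, a GC-rich and CACCC-like word of the kind that KLF and SP factors are known to bind. The word overlaps the usual SP1 box.
COL7A1: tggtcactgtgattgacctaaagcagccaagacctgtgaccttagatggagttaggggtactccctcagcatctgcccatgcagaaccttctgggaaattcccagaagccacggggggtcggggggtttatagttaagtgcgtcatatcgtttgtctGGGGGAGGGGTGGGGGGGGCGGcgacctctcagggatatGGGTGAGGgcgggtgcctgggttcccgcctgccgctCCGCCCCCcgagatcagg
COL5A3: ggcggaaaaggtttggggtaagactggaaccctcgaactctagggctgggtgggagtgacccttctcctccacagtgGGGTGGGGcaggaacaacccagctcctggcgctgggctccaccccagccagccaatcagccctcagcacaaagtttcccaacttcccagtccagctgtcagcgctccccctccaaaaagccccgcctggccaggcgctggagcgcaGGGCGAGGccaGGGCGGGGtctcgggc
There were 7 overlapping matches in the stretch of COL7A1 and 3 in that of COL5A3. In the table's windows of 300 bases, which run from 250 before to 50 after the start, 28 of the 31 collagen genes with a window held the word (90.3%). Of 15843 protein-coding genes with a window 72.3% held it, and the median GC content of the windows was 66.7% for the collagens and 64.7% for protein-coding genes. The word is common, and a match is a description of the sequence only.

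The 6 chains of type IV collagen are encoded by head-to-head pairs, in which 2 genes start close together and run in opposite directions. COL4A1 and COL4A2 encode the common network of nearly all basement membranes, and COL4A5 and COL4A6 belong to the network of epithelia such as esophagus and skin. COL4A3 and COL4A4 join COL4A5 mainly in kidney, lung and eye. The RefSeq starts of COL4A1 and COL4A2 lie 126 bases apart, those of COL4A6 and COL4A5 lie 379 apart and those of COL4A4 and COL4A3 lie 418 apart. The sequence shared by the first pair is shown because the pair gave unequal values. It covers chr13:110307158-110307283 on the plus strand, along COL4A2, and COL4A1 starts from its left end in the other direction.
COL4A1-COL4A2: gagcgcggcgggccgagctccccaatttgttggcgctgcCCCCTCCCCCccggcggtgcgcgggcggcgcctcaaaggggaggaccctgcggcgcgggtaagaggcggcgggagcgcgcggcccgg
For the second pair the 250 bases before each start are shown, along each gene, COL4A5 on the plus strand at chrX:108439588-108439837 and COL4A6 on the minus strand at chrX:108439459-108439708.
COL4A5: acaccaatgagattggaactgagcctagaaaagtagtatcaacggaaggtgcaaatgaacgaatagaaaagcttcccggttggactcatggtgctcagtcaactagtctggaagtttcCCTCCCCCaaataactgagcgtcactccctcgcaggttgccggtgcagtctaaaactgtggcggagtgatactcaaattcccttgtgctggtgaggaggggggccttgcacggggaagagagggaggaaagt
COL4A6: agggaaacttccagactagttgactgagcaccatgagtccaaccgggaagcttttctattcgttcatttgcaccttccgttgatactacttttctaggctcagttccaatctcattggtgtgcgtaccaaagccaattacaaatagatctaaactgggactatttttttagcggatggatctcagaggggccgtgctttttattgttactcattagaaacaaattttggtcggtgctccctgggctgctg
The same word is in capitals, with 2 overlapping matches between COL4A1 and COL4A2, 1 before COL4A5 and none before this start of COL4A6.

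COL4A1 and COL4A2 had equal levels in scramble and unequal ones in both shKLF5 libraries. COL4A1 (ENSG00000187498; chromosome 13, 110148963 to 110307233) had 21.6, 21.999 and 15.1 TPM, and COL4A2 (ENSG00000134871; chromosome 13, 110305812 to 110513209) had 21.5, 41.4 and 26.8 TPM. The ratio of COL4A2 to COL4A1 in TPM, which no scaling between libraries can move, was 0.995, 1.88 and 1.77. In counts COL4A1 had 4258, 4069 and 2921, and COL4A2 had 4048, 7363 and 4875. The log2 fold change was -0.70 for COL4A1 (SE 0.36, with 95% limits of -1.53 and 0.14) and 0.18 for COL4A2 (SE 0.39, limits -0.71 and 1.07), and the ranges between these limits overlap. By value COL4A1 was lower in both libraries, while COL4A2 stood at 0.43 in library 1 and -0.12 in library 2. With library size alone or a loess correction COL4A2 was higher in both. The difference between the 2 genes was not tested. At least 99.6% of the counts of each gene in every library belonged to 1 coding transcript, COL4A1-201 or COL4A2-201. The annotated genes overlap by 1422 bases on opposite strands at their starts. COL4A1-201 reaches to 110307233 and COL4A2-201 begins at 110307236, so these 2 transcripts do not overlap. The overlap lies with other COL4A2 transcripts, as COL4A2-201 held 99.96%, 99.86% and 99.7% of the counts of its gene. The use of strand is not given in the sources used here, so reads from that overlap could have been counted for COL4A1 or for those other transcripts.

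The epithelial pair was also uneven. COL4A5 (ENSG00000188153; chromosome X, 108439844 to 108697545), the most abundant type IV chain, had 7845, 9813 and 3461 counts, or 56.6, 75.1 and 38.2 TPM. It lay 1.08-fold (library 1) and 2.96-fold (library 2) below scramble after TMM scaling, and with library size alone or loess library 1 stood above scramble. Its log2 fold change was -0.66 (SE 0.54, with 95% limits of -1.91 and 0.59). COL4A6 (ENSG00000197565; chromosome X, 108155607 to 108439497) had 401, 745 and 757 counts. This was 15.1 CPM against 21.3 ± 0.680 CPM (SD, n = 2), higher by value in both libraries under every scaling tried, with a log2 fold change of 0.50 (SE 0.41). Its coding transcripts did not all move this way. COL4A6-202, which starts next to COL4A5, had 210, 589 and 597 counts. From another start, COL4A6-201 had 147, 0 and 71 counts and COL4A6-209 had 0, 82 and 0. These splits are estimates and were not tested. The ratio of COL4A5 to COL4A6 in TPM was 18.6, 13.4 and 7.25. Counts of COL4A5 were divided between 2 coding transcripts of nearly the same length, COL4A5-201 with 35.0%, 50.6% and 31.1% and COL4A5-202 with 61.3%, 45.4% and 58.1%. Such near-identical transcripts share most reads, so this split is uncertain. COL4A4 had 20, 61 and 65 counts and its partner COL4A3 2, 22 and 12, which puts both at or under 0.215 TPM.

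COL18A1 (ENSG00000182871; chromosome 21, 45405137 to 45513720), which encodes a multiplexin of basement membranes and the precursor of endostatin, had 4317, 4368 and 2065 counts, or 32.2, 34.2 and 15.5 TPM. It stood 1.33-fold below scramble in library 1 and 2.73-fold below in library 2 after TMM scaling, but 0.02 above scramble on the log2 scale in library 1 with library size alone. The log2 fold change was -0.84 (SE 0.45, with 95% limits of -1.89 and 0.21). The transcript COL18A1-204 held 90.1%, 87.7% and 85.4% of the counts. SLC19A1, a folate transporter gene on the opposite strand, overlaps COL18A1 by 20149 bases and had 823, 993 and 800 counts. COL15A1, the other multiplexin, had 3, 9 and 12 counts.

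Among the fibrillar collagens COL5A2 differed more between the shKLF5 libraries than between either of them and scramble. It encodes the second chain of type V collagen, which sets the diameter of collagen fibrils. COL5A2 (ENSG00000204262; chromosome 2, 189031896 to 189225312) had 10037, 22598 and 2034 counts, or 378, 631 and 58.5 CPM. Library 1 lay 1.67-fold above scramble and library 2 lay 6.45-fold below it, so the libraries were 10.8-fold apart on either side of scramble. The fitted log2 fold change of -0.13 (SE 1.01, with 95% limits of -2.45 and 2.19) averages these opposite values. Of 8704 genes with at least 500 counts, 6 (0.0689%) stood as far or further above in library 1 against library 2, COL5A2 among them. These others, chosen after their values were seen, were IGFBP5, EPDR1, CYP26A1, ID4 and KCNK2. The transcript COL5A2-201 carried at least 99.7% of the counts in every library.

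COL3A1, the chain of type III collagen, lies next to COL5A2 and runs towards it, with 19149 bases between the gene ends. COL3A1 (ENSG00000168542; chromosome 2, 188974320 to 189012746) had 484, 435 and 48 counts, which put library 1 at 1.497 times and library 2 at 12.7 times less than scramble. Its log2 fold change was -1.43 (SE 0.93, with 95% limits of -3.57 and 0.71). Both neighbours were thus lowest in library 2, while in library 1 COL5A2 stood above scramble and COL3A1 below it. The ratio of COL5A2 to COL3A1 in TPM was 15.4, 38.1 and 27.5. COL5A1, the partner chain of COL5A2 in type V collagen, had 1263, 1101 and 482 counts and was lower by value in both libraries, with a log2 fold change of -1.09 (SE 0.49, limits -2.23 and 0.05). The ratio of COL5A2 to COL5A1 in TPM was 9.48, 24.5 and 4.995.

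COL5A3, a minor chain of type V collagen, had the smallest p of the collagens with at least 50 counts. COL5A3 (ENSG00000080573; chromosome 19, 9959561 to 10010471) had 236, 81 and 57 counts. On the CPM scale scramble stood at 8.88 and shKLF5 at 1.95 ± 0.440 (SD, n = 2). Library 1 was 3.85-fold and library 2 was 5.26-fold lower than the single scramble library. Of all genes of at least 50 counts 44.5% were lower in both. The log2 fold change was -2.18 (SE 0.50, with 95% limits of -3.34 and -1.03). Its adjusted p was 0.402 by edgeR's quasi-likelihood test and 0.124 by DESeq2, and it ran from 0.124 to 0.611 over the alternatives. It was the only collagen of the 22 at least 2-fold lower in both libraries under TMM, a threshold that 2.33% of all genes of at least 50 counts met.

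Type I collagen usually combines chains from COL1A1 and COL1A2, but nearly all of its transcripts here came from COL1A1. COL1A1 (ENSG00000108821) had 1291, 2195 and 1495 counts, and COL1A2 had 1, 18 and 15. COL1A1 stood at 48.6 CPM in scramble against 61.3 and 43.0 CPM, so scramble lay between the shKLF5 libraries, and its log2 fold change was 0.10 (SE 0.39, with 95% limits of -0.80 and 1.01). With library size alone and with the loess correction both libraries lay above scramble. COL27A1, a cartilage-associated fibrillar collagen, had 973, 1335 and 739 counts, and the fit gave -0.32 (SE 0.44). COL11A2, a chain of cartilage type XI collagen, had 73, 173 and 243 counts and was higher by value in both libraries under every scaling tried (1.10, SE 0.55). COL11A2 lies in the major histocompatibility region, where the genome has alternate haplotypes, and transcripts assigned to those would not be in its total.

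The chains of type VI collagen, which form beaded filaments and are made side by side from chromosome 21, stood in unequal ratio. COL6A1 had 2932, 4250 and 1045 counts, or 27.2, 40.7 and 11.1 TPM, and COL6A2 had 582, 1293 and 924 counts, or 5.94, 15.2 and 10.7 TPM. COL6A1 was 1.08-fold above scramble in library 1 and 3.67-fold below it in library 2, with a log2 fold change of -0.57 (SE 0.66, with 95% limits of -2.10 and 0.96). COL6A2 was higher by value in both libraries under every scaling tried, with a log2 fold change of 0.52 (SE 0.41, limits -0.43 and 1.46). The ratio of COL6A1 to COL6A2 in TPM was 4.57, 2.67 and 1.04. COL6A3, a further chain of the usual type VI molecule, had 4, 21 and 19 counts, so its transcripts were nearly absent beside those of the other chains.

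Of the FACIT collagens only COL12A1, COL16A1, COL9A2, COL9A3 and COL20A1 had at least 50 counts in a library. COL12A1, which binds type I fibrils, was the most abundant, with 2845, 3173 and 1339 counts, fitted at -0.75 (SE 0.49). With library size alone it stood at 0.16 in library 1 and -1.05 in library 2. COL16A1 had 148, 234 and 333 counts and was higher by value in both libraries (0.53, SE 0.50). COL9A2 had 228, 408 and 275 counts (0.17, SE 0.47) and COL9A3 69, 50 and 55 (-0.80, SE 0.55); both encode chains of type IX collagen of cartilage. COL20A1 had 24, 35 and 173 counts, so its fitted 1.71 (SE 0.98) rests on library 2, and library 1 turned below scramble with the loess correction. COL28A1, a von Willebrand domain collagen known from peripheral nerve, had 232, 316 and 151 counts (-0.41, SE 0.54).

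**Figure D3:**
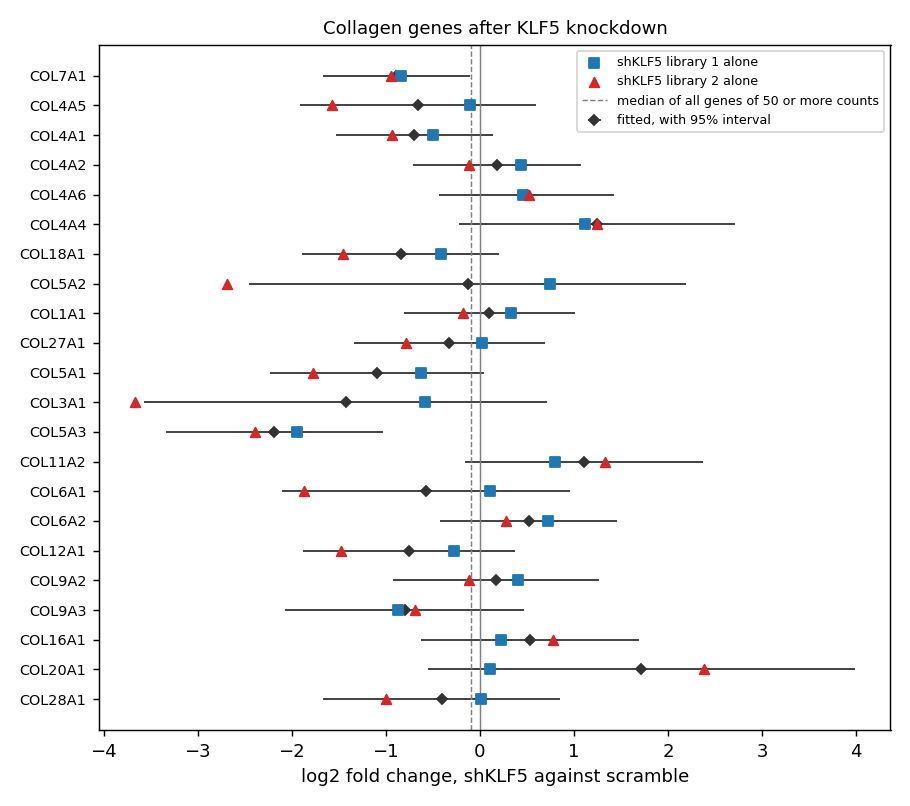
Log2 fold change of shKLF5 against scramble for the 22 collagen genes with at least 50 counts, with the fitted value and its 95% confidence interval as a diamond and bar, and each shKLF5 library alone as a square or triangle. The dashed line is the median of all genes of that depth (-0.09); the triangles of COL3A1 and COL5A2 lie furthest to the left, at -3.66 and -2.69, and COL5A3 and COL7A1 are the 2 genes whose intervals lie wholly below 0.

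Over the 22 collagens with at least 50 counts, 6 were higher in both shKLF5 libraries, 9 were lower in both and 7 went opposite ways, each of the 7 higher in library 1 and lower in library 2. Of all 14431 genes of that depth 29.4% were higher in both, 44.5% lower in both and 26.1% opposite, and 12.0% went the way of those 7. The counts of 6 and 9 were near these shares. The median log2 fold change was -0.36 for the collagens and -0.09 for all genes of that depth. The scaling moved this division. With library size alone, where the median of all tested genes shifted from 0.04 to 0.47, 9 collagens stood above scramble in both libraries and 6 below, against 61.2% and 14.6% of all genes. Across TMM, median-ratio, library size and loess scaling, 6 collagens were lower in both libraries each time: COL3A1, COL4A1, COL5A1, COL5A3, COL7A1 and COL9A3. In the same way 5 were higher each time, COL4A4, COL4A6, COL6A2, COL11A2 and COL16A1. Another 4, COL5A2, COL6A1, COL27A1 and COL28A1, were higher in library 1 and lower in library 2 each time, and the other 7 changed with the scaling.

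The plainest feature of the expressed collagens was the distance between the shKLF5 libraries. At least a 2-fold gap was seen for 9 of the 22 (12.6% of all genes of at least 50 counts), and 8 of these 9 were higher in library 1 (7.66% of all genes), the exception being COL20A1. The 9 became 7 with loess (1789 of all 14431 genes) and 7 with protein-coding genes only (1458 of 12451). They became 8 with length-scaled TPM (1832 of 14431) and 6 with limma at a pseudocount of 1 (1102 of 14431). A level at least 2-fold above that of library 2 was found in library 1 for 6 of the 13 collagens with at least 500 counts, against 6.45% of all genes of that depth. These were COL5A2, COL6A1, COL4A5, COL12A1, COL5A1 and COL18A1, and the gap does not depend on the scramble library. Against scramble, 8 of the 22 were at least 2-fold lower in library 2 (12.5% of all genes) and 1 in library 1 (3.19%). The median collagen of at least 500 counts stood at 0.03 in library 1 and -0.94 in library 2, where all genes of that depth stood at -0.16 and -0.20. COL17A1, the collagen left out here, followed the same order with 90548, 100704 and 30400 counts. With 1 library of each number there is no replicate of this difference, and whether the number marks a hairpin or a culture is not stated. KLF5 itself was 1333 and 1531 counts in these libraries, and TP63, the basal squamous factor, was 4939 and 2047. The part of either in the collagen values was not tested.

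**Figure D4:**
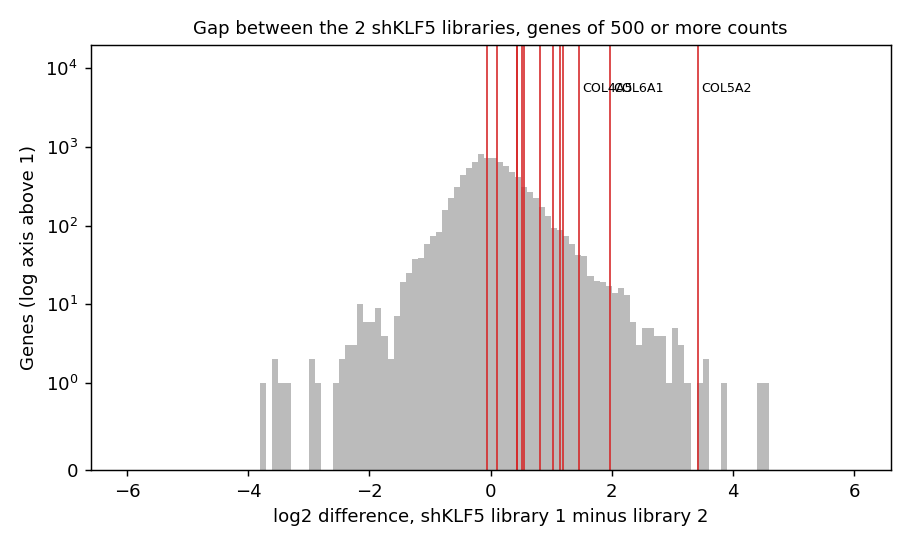
Histogram of the log2 difference between shKLF5 library 1 and library 2 for 8704 genes with at least 500 counts (grey, with a count axis that is logarithmic above 1) and the 13 collagen genes of that depth (red lines). COL5A2 at 3.43, COL6A1 at 1.98 and COL4A5 at 1.46 are named, and only the line of COL4A6, at -0.07, lies below 0.

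The other 20 tested collagens, which are mostly made by fibroblasts, cartilage, vessels or nerve, were near the limit of detection in all libraries and had more counts after shKLF5. Together they had 82, 384 and 340 counts, or 1.67, 4.99 and 5.01 TPM. Of the 43 collagens, 24 had at least 10 counts in scramble and 39 in each shKLF5 library. COL14A1, a FACIT of soft tissue, had 0, 23 and 22 counts, and COL6A5, a type VI chain, had 0, 15 and 17. With 3 counts as the floor for scramble, the observed values of COL14A1 stood 5.69-fold above that floor in library 1 and 5.60-fold in library 2. Those of COL6A5 stood 3.71-fold and 4.33-fold above it. The shKLF5 counts are themselves low and were taken without error, so these folds are not lower bounds. COL1A2 had 1, 18 and 15 counts, COL4A3 2, 22 and 12, COL22A1 1, 12 and 11, COL8A2 4, 36 and 17, and COL6A6 6, 37 and 21.

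In the same low class COL2A1, the main collagen of cartilage, had 11, 38 and 30 counts, COL11A1 16, 26 and 39, COL13A1 6, 25 and 20, COL8A1 6, 28 and 14 and COL21A1 6, 13 and 25. COL19A1 had 3, 13 and 16 counts, COL10A1 4, 15 and 7, COL23A1 2, 17 and 7 and COL25A1 2, 4 and 10. The exceptions to the common order were COL24A1, with 5, 0 and 26 counts, and COL26A1, with 0, 12 and 0. At least 2-fold higher values in both libraries were found for 10 of the 20, against 19.7% of all 6397 genes with 10 to 49 counts at most, and for 1 of the 22 deeper collagens, COL4A4, against 3.31%. Genes of this depth stood higher in general, with 58.0% of them above scramble in both libraries, where 18 of the 20 collagens were, and 18.0% below it in both, where 0 of the 20 were. Their median log2 fold change was 0.64 and that of the 20 collagens was 1.84, or 1.66 with the genes at 0 in scramble set to the floor. Apart from COL2A1 and COL11A1, all of the 20 had under 10 counts in scramble and entered the test only through an shKLF5 library. Their direction is thus in large part set by the limit of 10 counts. Coding transcripts held 52.0%, 66.3% and 57.7% of the counts of these 20 genes, 71.1%, 73.3% and 70.4% for all protein-coding genes of 10 to 49 counts, and 92.0%, 94.5% and 88.2% for the 22 deeper collagens.

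Most of the endothelial, leukocyte, chondrocyte and glandular markers tested also stood higher in both shKLF5 libraries, many of them at low counts. All 3 endothelial markers tested were at least 2-fold higher in both shKLF5 libraries, CDH5 with 0, 14 and 10 counts, TEK with 2, 12 and 8 and VWF with 87, 237 and 341. That threshold was met by 19.7% of all genes of 10 to 49 counts at most and 3.31% of those of at least 50. The summed level of the endothelial list was 0.347, 1.17 and 1.48 TPM. All 3 leukocyte markers tested were higher in both, as were 58.0% of all genes of 10 to 49 counts at most and 29.4% of those of at least 50. Their list had a summed level of 4.10, 9.69 and 12.4 TPM. Most of it was CD68, with 105, 231 and 306 counts, while PTPRC, which defines leukocytes, had 8, 24 and 11. Of the 3 chondrocyte markers tested 2 were higher in both, with a summed level of the list of 1.21, 2.93 and 1.45 TPM. ACAN, the cartilage proteoglycan, had 0, 12 and 8 counts. MATN3, with 33, 119 and 37 counts, stood at 1.38 in library 1 and -0.21 in library 2 on the log2 scale. CDH17, the only glandular marker tested, had 4, 16 and 15 counts, and that list summed to 0.377, 0.773 and 0.950 TPM. In scramble 2 genes of each of these 4 lists were at 0. Their part in the values of the low collagens was not tested.

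**Figure D5:**
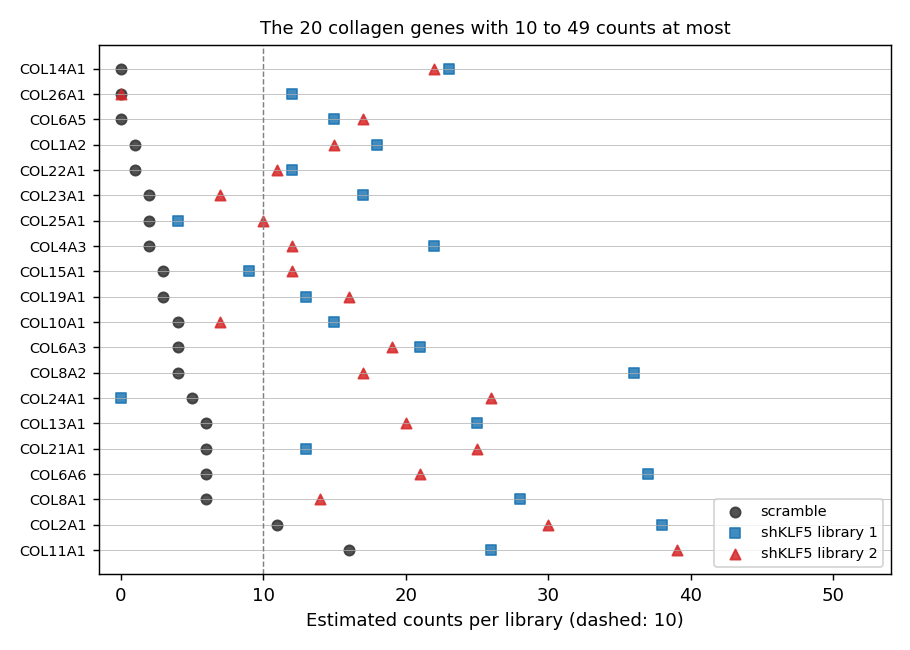
Estimated counts in each library of the 20 collagen genes that had 10 to 49 counts at most, with a dashed line at 10. The scramble circles lie at 16 or below, and both shKLF5 symbols lie to their right except for COL24A1 and COL26A1.

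Genes that fold, export, crosslink, bind or cut collagen showed no direction common to all lists, though more of the folding and modification genes stood below scramble than above it. Over all genes tested 38.2% stood above scramble in both shKLF5 libraries and 36.4% below it, and these shares depend on depth. They were 58.0% and 18.0% for genes of 10 to 49 counts at most. For genes of at least 50 counts they were 29.4% and 44.5%, and for those of at least 500 counts 22.2% and 52.0%. Of 19 genes of folding and modification 11 stood below scramble in both shKLF5 libraries and 5 above it, a median of -0.18 on the log2 scale. The 11 each had at least 500 counts in a library, a depth at which 52.0% of all genes stood below scramble in both. Of the others at that depth, FKBP10 stood above scramble in both, and TMEM38B and P3H2 went opposite ways. By edgeR's quasi-likelihood test 0 of the 19 passed, with 2 at an unadjusted p under 0.05 (9.65% of all genes). P4HA1, the catalytic subunit of prolyl hydroxylase, had 2383, 1871 and 1104 counts (-1.09, SE 0.40). PPIB, the cyclophilin of the endoplasmic reticulum, stood at -0.89 (SE 0.37) and its complex partner CRTAP at -0.93 (SE 0.42). SERPINH1, the collagen chaperone HSP47, stood at -0.58 (SE 0.37), with library 1 at -0.35 and library 2 at -0.85.

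Of 12 export and processing genes tested 3 stood above and 3 below scramble in both libraries, and BMP1, the procollagen C-proteinase, had 4836, 4729 and 2776 counts (-0.78, SE 0.40). SEC23A and SEC24D, parts of the coat of vesicles that leave the endoplasmic reticulum, stood at -0.65 (SE 0.43) and 0.59 (SE 0.45). Among 6 crosslinking genes tested 2 were lower in both, LOX with 55, 39 and 17 counts and LOXL2 with 1029, 1088 and 324, both of them lysyl oxidases. Of 11 collagen receptors 7 stood above scramble in both libraries and 2 below. Among the 7, ITGA11, ITGA1, ITGA10, LAIR1 and GP6 had under 50 counts, a depth at which 58.0% of all genes stood above scramble in both. DDR2, a receptor kinase for fibrillar collagen, had 57, 329 and 304 counts, fitted at 2.06 (SE 0.53) on the log2 scale with an adjusted p of 0.447 by edgeR's quasi-likelihood test. MRC2, which takes up collagen fragments, stood at -0.76 (SE 0.38) and ITGB1, the beta subunit of collagen-binding integrins, at -0.65 (SE 0.36), the 2 receptors below scramble in both. ITGA11, a collagen-binding integrin subunit under 50 counts, had 2, 22 and 24 counts and was picked with its values known. Of the 4 other basement membrane genes AGRN, a heparan sulfate proteoglycan, had 24660, 23776 and 15569 counts (-0.74, SE 0.39), NID1, which links laminin to type IV collagen, had 34, 56 and 63 (0.40, SE 0.60), and HSPG2, perlecan, had 4886, 9720 and 4008 (0.07, SE 0.51). HSPG2 thus lay above scramble in library 1 and below it in library 2, as COL5A2 and COL6A1 did. Of 7 collagen-degrading proteases tested 3 were higher and 3 lower in both libraries, and those above scramble were MMP8 with 1, 6 and 18 counts, MMP13 with 4, 15 and 12 and CTSK with 35, 79 and 66. CTSK, the cathepsin of bone resorption, was fitted at 0.64 (SE 0.59), CTSL, a lysosomal protease, at -0.88 (SE 0.43), and MMP14, a membrane collagenase, at -0.32 (SE 0.36).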

How the data were processed

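RNA of TE5 cells was sequenced from TruSeq libraries on a HiSeq instrument, per the labels. The authors deposited 1 kallisto abundance table per library; the submitters' processing notes name kallisto, DESeq2 and build hg19, with no version. Strand use and the transcript set are not stated there or in the labels. The deposited estimated counts are kallisto's unnormalised values per transcript, and the deposited TPM are kallisto's length-corrected levels, per the file headers. Transcript lengths, also deposited, served for length-scaled counts.

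Of 196354 transcripts, 181857 (92.6%) matched GENCODE 29, whose GRCh38 coordinates are printed; the others held 3.05%, 3.42% and 3.40% of counts and were left out. Counts were summed per gene and rounded. Genes with 10 or more counts in any library (20828) entered edgeR 4.0.16 under R 4.3.3 (TMM factors 0.820, 1.11 and 1.10, quasi-likelihood F test with legacy = FALSE, Benjamini-Hochberg adjustment, threshold 0.05). The fit had 1 residual degree of freedom and a common biological coefficient of variation of 33.2%. SE was derived from the fold change and its F statistic, and intervals are at 95%. Single-library values (prior count 2) are untested. The floor of 3 counts covers counting error of the scramble library only, and reads carried no molecular identifiers. Alternatives used DESeq2 1.42.0 and limma 3.58.1. Collagens with 50 or more counts in a library got fitted values, those under 50 counts only, and up to 3 members of each related list, those with the smallest p among members of 50 or more counts, were named. SERPINH1, FKBP10, TMEM38B and P3H2 were added after their values were seen. So were ITGA11 and the other receptors under 50 counts, MMP8, MMP13, the low markers, VWF, CD68, MATN3 and the gap genes. The collagens and all lists were chosen with earlier results of these data known.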

Additional observations from a re-analysis of the deposited data

How the results depend on the processing

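No paired analysis was possible because scramble has 1 library and the groups share fewer than 2 replicate numbers. All genes called numbered 0 in the main test, 22 with edgeR's legacy fit and 116 with DESeq2, and no collagen was called under any setting. The 22 named collagens gave 325 values over the alternatives, of which 307 kept their direction and 18, in 7 genes, reversed; the cause was not tested. With library size alone COL27A1 stood at 0.11, COL28A1 at 0.0233 and COL5A2 at 0.30. With limma on log2(TPM + 1) COL27A1 stood at 0.26 and COL28A1 at 0.0916, and with a pseudocount of 0.1 at 0.29 and 0.0898. With length-scaled TPM COL1A1 stood at -0.0215 and COL9A2 at -0.0163. COL5A2 stood at 0.19 with loess and 0.0338 at a mean CPM of at least 5. With 1 shKLF5 library left out, values with no test ran from -0.18 to 0.34 for COL1A1, -0.78 to 0.0262 for COL27A1, -1.01 to 0.0157 for COL28A1, -0.12 to 0.43 for COL4A2, -2.69 to 0.74 for COL5A2, -1.88 to 0.11 for COL6A1 and -0.12 to 0.41 for COL9A2.

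The median log2 fold change of the collagens tested was 0.997 (0.79 with genes at 0 in scramble set to the floor), beside 0.04 for all genes. It was 1.42 with library size alone, 0.54 with loess, -0.23 at a mean CPM of at least 5, where the low genes are left out, 0.67 with length-scaled TPM, 0.14 and 0.60 with limma at pseudocounts 1 and 0.1, and 0.61 to 0.80 with 1 shKLF5 library left out. Collagens at least 2-fold higher in both libraries numbered 11 (8.33% of all genes), 3 with loess, 0 at a mean CPM of at least 5, 0 and 3 with limma at pseudocounts 1 and 0.1, and 16 to 17 in a single library. Those at least 2-fold lower numbered 1 (2.27% of all genes), 0 at a mean CPM of at least 5, 0 with limma at a pseudocount of 1, and 2 without library 2 to 8 without library 1. Counts under 50 limit the 20 low collagens.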
